A study of Mus musculus with 6 samples.

Results

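The Wnt ligand genes Wnt2b, Wnt3, Wnt4, Wnt5a, Wnt5b, Wnt7a, Wnt7b, Wnt9a, Wnt10a and Wnt11 were followed through transcript assemblies of mouse spinal cord. They are 10 of the 19 mouse Wnt genes and of 55450 genes in the annotation GENCODE vM21. A gene was counted as assembled in a library when a transcript there overlapped one of its exons on the same strand. By that rule all 10 were assembled in each of the 6 libraries. The libraries were made from poly-adenylated RNA of the ventral part of the lumbar cord of C57BL/6 mice aged 5 weeks, 3 wild-type (WT) and 3 Gde2KO. Gde2KO mice lack GDE2, the product of Gdpd5, a membrane enzyme that cuts glycosylphosphatidylinositol (GPI) anchors and so releases proteins from the cell surface. The study asks how GDE2 bears on canonical Wnt signalling in neurons and on how oligodendrocytes mature. The labels give no allele, no sex, and nothing that says whether the libraries of a genotype came from separate animals, so p-values measure the spread between these libraries only.

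Wnt proteins are secreted, lipid-modified signals that act over short distances. In the canonical branch a Wnt binds a Frizzled receptor with the coreceptor Lrp5 or Lrp6, beta-catenin is spared from breakdown, and genes such as Axin2 are transcribed. Other branches use receptors such as Ror2 and Ryk and act on cell polarity and movement without beta-catenin. In the spinal cord Wnt ligands pattern the dorsal neural tube, guide axons and act on blood vessels and on oligodendrocyte precursors.

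Each library held 31899 to 33791 assembled transcripts, and relative depth, with 1 as the average, ran from 0.906 to 1.13. The targeted gene Gdpd5 stood at 5.41, 6.58 and 5.99 FPKM in the WT libraries and at 1.25, 1.204 and 0.952 in Gde2KO, (fold 0.202, 95% interval 0.162 to 0.253, limma adjusted p = 0.00530), which fits the labels of all 6 libraries. Gde2KO replicate 1 stood apart from the other 5 libraries in 2 ways. It alone held the Y-linked gene Ddx3y (21.8 FPKM) and had Xist listed at 0. Its meningeal fibroblast markers summed to 34.6 FPKM against 70.6 to 92.8 elsewhere, and all 6 measured markers of that list were lowest there. Gde2KO replicate 3 stood apart in its assembly, with 56.2% of spliced transcripts carrying an annotated intron chain against 49.3% to 49.8% elsewhere. WT replicate 1 stood apart in some markers. Its astrocyte markers summed to 959 FPKM against 1075 to 1172 elsewhere, with 5 of 6 lowest there. Its oligodendrocyte markers summed to 6057 FPKM against 7117 to 9068, with 4 of 7 lowest there. Its motor neuron markers summed to 161 FPKM against 184 to 217, with 3 of 6 lowest there, though Chat was highest there. Its ependymal markers summed to 45.8 against 70.3 to 88.1, but only Foxj1 of 6 was lowest there (19.8 against 54.9 to 68.4). The neuronal tubulin Tubb3 stood at 166 against 558 to 703, and no other of the 6 general neuron markers was lowest there. The ependymal markers Rarres2, Ccdc153 and Dnah9 and the neuronal markers Rbfox3, Snap25 and Syt1 were highest in that library. Ligand values that turn on these libraries are given with and without them. Marker genes of neurons, motor neurons, oligodendrocytes, astrocytes, microglia and endothelium were above 0 in every library. Of 5 skeletal muscle markers only Acta1 had enough assembled bases to be measured, at 0 to 0.854 FPKM. Of 5 red blood cell markers 2 had, with Hbb-bs at 109 to 196 FPKM, so a gene without a measured value is not shown to be absent.

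Wnt7b was the most abundant of the ligands, at 9.95 to 11.5 FPKM over the 6 libraries. FPKM is a count of sequenced fragments scaled to transcript length and library size, and values here are averages over a gene's bases, so genes of different length can be compared. Wnt3 (3.49 to 6.06) and Wnt7a (2.93 to 5.27) followed, then Wnt5a (1.83 to 2.42), Wnt4 (0.677 to 1.81) and Wnt5b (1.07 to 1.62). The remaining 4 averaged under 1 FPKM, Wnt2b at 0.866, Wnt9a at 0.678, Wnt11 at 0.565 and Wnt10a at 0.521. Along that order 4 of the 9 steps separated neighbours whose ranges did not overlap, those from Wnt7b to Wnt3, from Wnt7a to Wnt5a, from Wnt5a to Wnt4 and from Wnt5b to Wnt2b. Wnt3 and Wnt7a overlapped, as did Wnt4 and Wnt5b, and the 4 lowest genes each overlapped the next. Wnt7b made up 37.2% to 41.6% of the summed level of the 10 genes in each library. Among the 15416 genes that averaged 0.1 FPKM or more, 66.0% lay below the mean level of Wnt7b, 46.5% below that of Wnt3 and 8.11% below that of Wnt10a.

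**Figure D1:**
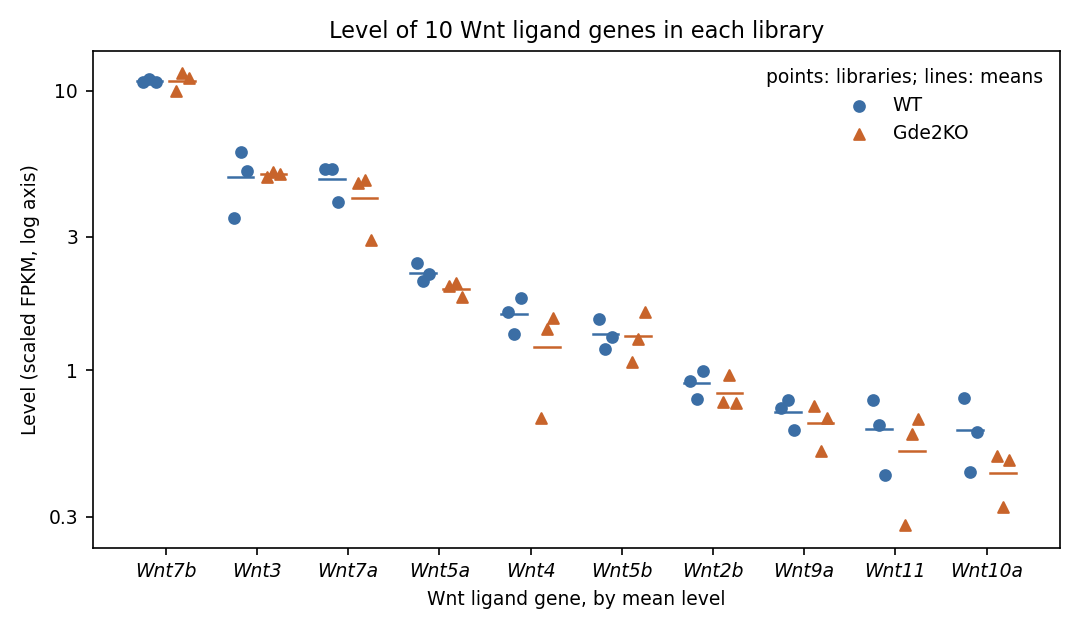
Level of each Wnt ligand gene in each library, in scaled FPKM on a log axis, with WT libraries as circles, Gde2KO libraries as triangles and lines for the mean of 3 libraries. Wnt7b lies between 9.95 and 11.5 in all 6 libraries, and the low triangles of Wnt4 and Wnt11 are both Gde2KO replicate 1.

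The depth behind these values was greatest for Wnt7b, Wnt3 and Wnt7a. The deepest assembled transcript of Wnt7b had 35.4 to 59.9 reads per base over the libraries, per the deposited files, that of Wnt3 had 17.7 to 33.0 and that of Wnt7a 15.2 to 28.6. Wnt5a had 10.8 to 13.5, Wnt4 5.12 to 11.01, Wnt5b 3.15 to 10.7 and Wnt9a, which lies below them in level, 2.87 to 13.02. The 13.02 is that of a single-exon piece of 273 bases in WT replicate 2, and the spliced transcripts of Wnt9a had 2.84 to 4.05. The 10.7 of Wnt5b is likewise a single-exon piece, of 664 bases in WT replicate 2. The deepest spliced transcript of Wnt5b had 4.99 there, 3.15 in WT replicate 3 and up to 9.46 elsewhere. For Wnt2b the depth of the deepest transcript was 3.70 to 4.69, for Wnt10a 2.68 to 4.76 and for Wnt11 1.75 to 4.23. The coefficient of variation over the 6 libraries was smallest for Wnt7b, at 4.86%, and largest for Wnt10a and Wnt11, at 31.2% and 32.3%.

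None of the 10 ligands passed the test between the genotypes. The test was limma on log2(FPKM + 0.1) with Benjamini-Hochberg adjustment, fitted over the 12894 genes that averaged 1 FPKM or more for the 6 higher ligands and over 15416 genes for the 4 lower ones. In those fits 0.116% and 0.123% of all genes were called at an adjusted p under 0.05. No ligand had an unadjusted p under 0.05 either, against 3.91% and 4.02% of all genes. On the log2 scale 8 of the 10 were lower in Gde2KO and 2 higher, with a median difference of -0.15, where 49.9% of genes in the first fit and 50.5% in the second were lower, the latter with a median of -0.00. Without Gde2KO replicate 1 the split was 6 lower and 4 higher. It was 9 and 1 without WT replicate 1, WT replicate 3 or Gde2KO replicate 3, and stayed 8 and 2 without either replicate 2. Without scaling of the libraries it was 9 and 1, with Wnt7b (log2 difference 0.0024) on the other side. Wnt5a was the one ligand whose groups did not overlap. Groups did not overlap, with Gde2KO lower, for 5.79% of genes in the first fit and 6.27% in the second, and in either direction for 10.9% and 11.1%.

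**Figure D2:**
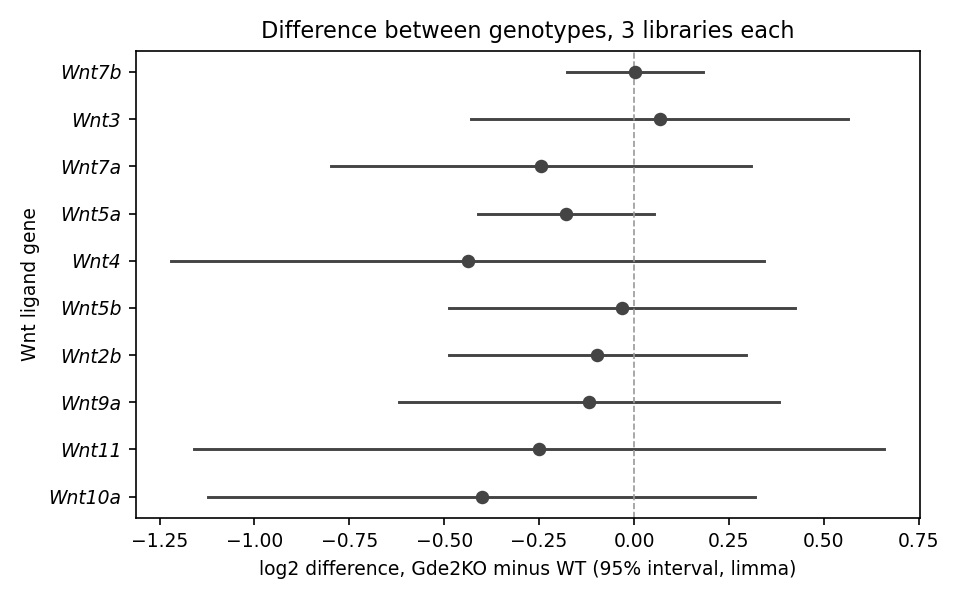
Difference between the genotypes for each Wnt ligand gene, as the log2 difference of Gde2KO minus WT (points) with its 95% interval from limma (lines), 3 libraries in each group. Every interval includes 0, and the narrowest is that of Wnt7b, from -0.18 to 0.18.

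Wnt7b and Wnt7a are close relatives that signal to the endothelium of the central nervous system, where the surface protein Reck and the receptor Adgra2 make vessels respond to them. Wnt7b stood at 10.7, 11.02 and 10.7 FPKM in the WT libraries and at 9.95, 11.5 and 11.1 in Gde2KO. All 6 values lay close together and the groups overlapped. The fold was 1.002 with a 95% interval of 0.885 to 1.13 and a limma adjusted p of 0.997. That interval is the narrowest of the 10 ligands.

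Wnt7b showed a single choice of start. Of 5 annotated first exons, the one of transcript Wnt7b-204 (chromosome 15, 85577508 to 85578070, minus strand, build mm10) began every assembled transcript in all 6 libraries. The other first exons were in none. Within that choice a splice donor varied. Exon 2 was joined to exon 3 either at the annotated donor of Wnt7b-204 or at one 4 bases upstream, which the annotation holds in Wnt7b-201, a transcript with another first exon. Both junctions, from the annotated transcripts and written 5′ to 3′, show the 4 bases that only the longer form keeps in capitals.
Wnt7b long exon 2 joined to exon 3: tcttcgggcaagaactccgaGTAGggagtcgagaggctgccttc
Wnt7b short exon 2 joined to exon 3: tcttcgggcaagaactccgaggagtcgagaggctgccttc

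Read from the start codon of Wnt7b-204, the longer form reads on for 353 codons before its stop. Without the 4 bases the frame shifts and a stop follows after 130 codons, 102 of them before the junction. The short form was assembled in 4 libraries. As deposited FPKM it stood at 1.203 in WT replicate 3 and at 2.59, 1.199 and 2.096 in Gde2KO replicates 1 to 3, and it was not assembled in WT replicates 1 and 2. As a share of both forms this is 11.3% in WT replicate 3 and 26.4%, 10.5% and 18.99% in Gde2KO. The authors' confidence bounds for the short form were 0.950 to 1.46 in WT replicate 3 and 2.23 to 2.95 in Gde2KO replicate 1. WT replicate 3 lay above Gde2KO replicate 2, so the groups overlapped. This junction was chosen after its values were seen and was not tested, and a form that Cufflinks did not assemble in a library may still have had reads there.

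**Figure D3:**
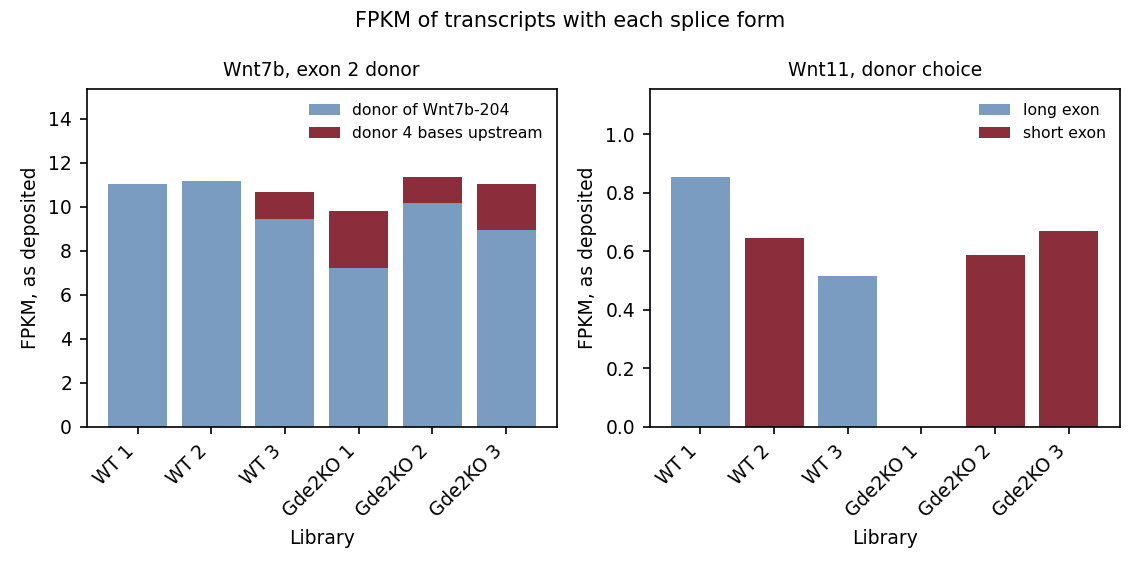
FPKM as deposited of transcripts carrying each form of a splice junction, stacked for each library, for Wnt7b (left) and Wnt11 (right). The Wnt7b form with the upstream donor makes up 10.5% to 26.4% in the 4 libraries that hold it, while each library with the Wnt11 junction holds 1 form of it and Gde2KO replicate 1 holds neither.

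Wnt7a (chromosome 6, 91363981 to 91411363, minus strand) stood at 5.26, 5.27 and 3.997 FPKM in the WT libraries and at 4.66, 4.81 and 2.93 in Gde2KO. WT replicate 3 and Gde2KO replicate 3 were the low libraries of their groups, and the groups overlapped. The log2 difference was -0.25 (fold 0.843, 95% interval 0.575 to 1.24, limma adjusted p = 0.882), and without Gde2KO replicate 3 it was -0.021. In that library the assembly of Wnt7a differed too. The main transcript there (2.57 FPKM) carried an intron inside the last exon that the annotation does not hold, beside a shorter one with the annotated introns (1.07 FPKM). Elsewhere the annotated 4-exon chain was the main or single form. What part this assembly has in the low value was not tested.

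In the embryo Wnt3 is made by motor neurons and acts on the axons of incoming muscle sensory neurons. It stood at 3.49, 6.06 and 5.16 FPKM in the WT libraries and at 4.89, 5.14 and 5.02 in Gde2KO. WT held both the lowest and the highest library, with the Gde2KO libraries close together between them. The log2 difference was 0.068 (fold 1.05, 0.743 to 1.48, limma adjusted p = 0.951), and it was -0.15 without WT replicate 1. The first exon of Wnt3 (chromosome 11, 103774150 to 103774348, plus strand) was assembled in full in WT replicate 1 and by 1 of its 199 bases in Gde2KO replicate 1. The other 4 libraries began at the second exon, so they held 90.8% to 92.5% of its coding bases.

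Wnt2b, a canonical ligand of lung and retina development, was listed at 0.915, 0.788 and 0.992 FPKM in the WT libraries and at 0.770, 0.960 and 0.768 in Gde2KO. High and low libraries occurred in both groups, and the fold was 0.935 (0.713 to 1.23, limma adjusted p = 0.902). These values rest on the last exon. Its counted bases are the 1929 of that exon alone, since no base of the other exons was assembled in at least 3 libraries. In every library a single-exon transcript of 6694 to 7481 bases covered the last exon (chromosome 3, minus strand) and ran 2825 to 2893 bases past the annotated 3′ end, and 5481 bases in WT replicate 2. It also reached 1940 to 2110 bases into the last intron, and 71 bases in WT replicate 2. The nearest annotated protein-coding gene on that side, St7l, lies on the other strand and ends at 104930064, and the annotated end of Wnt2b is at 104945272. Of the 1167 coding bases, 902 were assembled in WT replicate 1, 691 in WT replicate 3, 250 in Gde2KO replicate 2 and 227 in each of the other 3 libraries. The spliced upstream pieces stood at 0.450 FPKM in WT replicate 1 and 0.709 in WT replicate 3. No library held the full chain of 5 exons.

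**Figure D4:**
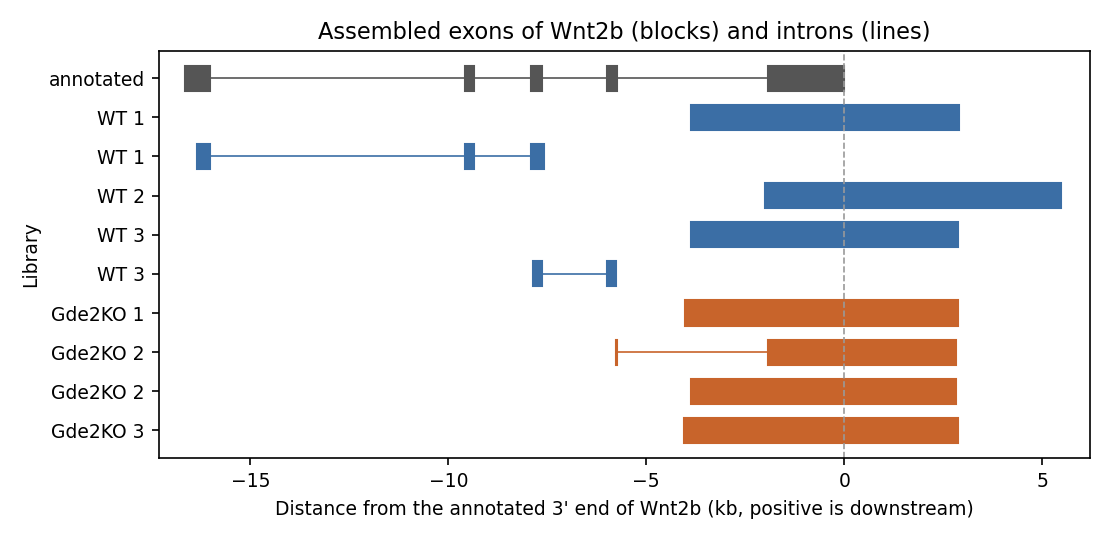
Assembled transcripts of Wnt2b in each library along the distance from its annotated 3′ end in kilobases, positive downstream, with exons as blocks, introns as lines, and the annotated 5-exon transcript on top. In all 6 libraries a block covers the last exon and extends past 0, by 2.83 to 2.89 kilobases in 5 of them and by 5.48 in WT replicate 2.

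Wnt9a, known from joint development, stood at 0.732, 0.784 and 0.610 FPKM in the WT libraries and at 0.749, 0.516 and 0.676 in Gde2KO. The groups overlapped (fold 0.921, 0.652 to 1.30, limma adjusted p = 0.907), and the log2 difference was -0.12. It was 0.015 without Gde2KO replicate 2 and -0.74 (unadjusted p = 0.137 from limma) with the plain sum of transcripts. One choice of junction was the same in every library. The annotation gives Wnt9a 2 coding transcripts of 1095 coding bases that differ in 6 of them, because exon 3 ends and exon 4 begins 9 bases further on in one than in the other. All 6 libraries held the junction of Wnt9a-202 (intron at chromosome 11, 59328765 to 59330892, plus strand) and none that of Wnt9a-201. Both are shown with exon 4 in capitals.
Wnt9a-202, assembled in every library: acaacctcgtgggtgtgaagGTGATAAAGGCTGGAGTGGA
Wnt9a-201, assembled in none: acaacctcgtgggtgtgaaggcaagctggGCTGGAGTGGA

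Wnt10a, a ligand of skin and tooth development, stood at 0.798, 0.434 and 0.600 FPKM in the WT libraries and at 0.493, 0.324 and 0.478 in Gde2KO. WT replicate 1 was highest and WT replicate 2 lay below 2 of the Gde2KO libraries. The log2 difference was -0.40 (fold 0.758, 0.460 to 1.25, limma adjusted p = 0.884). It was -0.22 without WT replicate 1, -0.24 without Gde2KO replicate 2, and 0.13 with the plain sum of transcripts. Most libraries held the gene in pieces. The full coding chain of 4 exons was assembled in WT replicates 2 and 3 only. The share of coding bases assembled was 95.9%, 100% and 81.8% in WT replicates 1 to 3. It was 38.2%, 52.6% and 99.8% in Gde2KO replicates 1 to 3. With the level taken over coding bases alone the log2 difference was -0.70 (unadjusted p = 0.111 from limma).

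Wnt5a and Wnt5b belong to the branch that acts without beta-catenin. Wnt5a steers axons of the corticospinal tract through the receptor Ryk. It stood at 2.42, 2.08 and 2.21 FPKM in the WT libraries and at 1.998, 2.06 and 1.83 in Gde2KO. Each Gde2KO library lay below each WT library, though WT replicate 2 and Gde2KO replicate 2 were 2.08 and 2.06. The log2 difference was -0.18 with a standard error of 0.0933 (fold 0.883, 0.753 to 1.04, unadjusted p = 0.105, limma adjusted p = 0.882). Over 20 alternatives it ran from -0.35 to -0.12, lower in each, with no unadjusted p under 0.05 (limma adjusted p 0.784 to 0.992).

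All 6 libraries held the coding chain of Wnt5a-201 (chromosome 14, 28504750 to 28527448, plus strand), and all 1140 coding bases were assembled in each. The far 3′ part of the last exon was a separate single-exon piece in 5 libraries, at 0.928 to 1.07 FPKM against 2.11 to 2.72 for the spliced transcript, with 127 to 556 bases between them unassembled. In Gde2KO replicate 3 the assembly ran through to the end as a single transcript at 1.82 FPKM. WT replicate 1 also held Wnt5a-202, which starts at an inner first exon, at 0.676 FPKM. WT replicate 2 held a second form at 0.421 FPKM whose exon 5 begins 4 bases later, at a junction outside the annotation. These 4 bases are in capitals in the annotated junction of exons 4 and 5, and without them the reading frame closes after 234 codons rather than 380.
Wnt5a exon 4 joined to exon 5: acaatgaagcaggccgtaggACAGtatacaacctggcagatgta

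Wnt5b stood at 1.53, 1.197 and 1.32 FPKM in the WT libraries and at 1.07, 1.30 and 1.62 in Gde2KO. Gde2KO held both the lowest and the highest library (fold 0.978, 0.714 to 1.34, limma adjusted p = 0.980). Its direction was higher in Gde2KO over coding bases alone (0.11), after quantile normalization (0.015), without WT replicate 1 (0.057) and without Gde2KO replicate 1 (0.10). Wnt5b (chromosome 6, 119432531 to 119544347) has 3 annotated first exons. The farthest upstream (119543981 to 119544347, minus strand) began a coding chain in all 6 libraries, at 0.697 to 1.63 FPKM. Junctions from the inner first exons were assembled in WT replicate 3 alone, at 0.172 FPKM for Wnt5b-202 and 0.567 for Wnt5b-201, beside 0.697 for the upstream one. Those transcripts began 112 and 162 bases inside the annotated starts, so only the far ends of these exons were assembled.

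RefSeq lists a start site for each of these 3 first exons on build GRCm38.p6. The 250 bases before each are shown because the assemblies used one of these exons in every library and the others in 1. Spliced transcripts began 348 bases from the upstream start in Gde2KO replicate 1 and within 100 bases of it in the other libraries. No library had one within 100 bases of the other starts. Capitals mark CG dinucleotides.
Wnt5b upstream start, chr6:119544348-119544597, minus strand: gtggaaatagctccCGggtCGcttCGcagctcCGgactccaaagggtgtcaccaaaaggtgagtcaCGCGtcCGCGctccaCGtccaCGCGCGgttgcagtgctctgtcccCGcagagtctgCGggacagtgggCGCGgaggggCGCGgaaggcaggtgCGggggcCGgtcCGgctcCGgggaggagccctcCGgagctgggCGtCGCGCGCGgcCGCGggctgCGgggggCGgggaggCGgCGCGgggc
Wnt5b middle start, chr6:119467212-119467461, minus strand: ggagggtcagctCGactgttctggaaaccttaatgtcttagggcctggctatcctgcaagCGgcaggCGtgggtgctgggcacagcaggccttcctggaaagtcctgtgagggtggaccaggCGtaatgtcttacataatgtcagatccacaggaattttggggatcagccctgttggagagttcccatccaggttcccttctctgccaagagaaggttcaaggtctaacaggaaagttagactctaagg
Wnt5b inner start, chr6:119449387-119449636, minus strand: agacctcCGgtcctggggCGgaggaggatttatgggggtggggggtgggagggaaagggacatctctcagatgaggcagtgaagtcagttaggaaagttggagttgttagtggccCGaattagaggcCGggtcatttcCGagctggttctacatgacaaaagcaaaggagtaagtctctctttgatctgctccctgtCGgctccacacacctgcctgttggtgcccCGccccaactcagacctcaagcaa

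The upstream window holds 35 CG dinucleotides and 75.2% G and C, the middle one 4 and 53.2%, and the inner one 7 and 55.6%. Over the 32851 windows of this length in the RefSeq table the medians were 6 and 52.4%. Of the 10 ligands, 7 had an entry there, with 10 start sites in all. For Wnt7a the assembled spliced transcripts began within 100 bases of the listed start in 6 libraries, for Wnt4, Wnt9a and the upstream start of Wnt5b in 5, and for Wnt2b and Wnt3 in 1. The windows of Wnt2b, Wnt3, Wnt4, Wnt7a and Wnt9a held 22 to 48 CG dinucleotides. A search on both strands for CTTTGAT, the core of the site read by the Wnt-responsive factors Tcf7 and Lef1, found it in the inner Wnt5b window and in the upstream one of Wnt11, against 3.21% of all windows. TATAAA, the letters of a TATA box, was found in the upstream Wnt11 window alone (12.4% of all windows), and GGGCGG, the core of an Sp1 site, in 8 of the 10 (32.7% of all). Those 8 windows held 55.6% to 85.2% G and C, and the shares over all windows were not matched for base composition. None of these motifs contains another.

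Wnt4 acts in kidney and gonad development and on axons of the cord. Its levels were 1.62, 1.354 and 1.81 FPKM in WT and 0.677, 1.41 and 1.54 in Gde2KO. Gde2KO replicate 1 was far below the other 5 libraries, and replicates 2 and 3 of Gde2KO lay within the range of WT. The log2 difference was -0.44 (fold 0.738, 0.430 to 1.27, limma adjusted p = 0.882), and without Gde2KO replicate 1 it was -0.10. That replicate also had the lowest sum of meningeal fibroblast markers, 34.6 against 70.6 to 92.8 FPKM, with Igf2 of that list not measured for want of assembled bases, and the lowest sum of Schwann cell markers, 191 against 282 to 421 FPKM. Superficial dorsal horn markers were highest there, 203 against 118 to 154 FPKM. It was also the library with Ddx3y and with Xist at 0. The part of these markers and of sex in the low Wnt4 value was not tested. Fewer cells of a type cannot be told apart from less RNA per cell in tissue of this kind. The 5-exon coding chain of Wnt4 (chromosome 4, 137277489 to 137299726, plus strand) was assembled in 5 libraries and 4 of its exons in WT replicate 3. Both the spliced transcript (1.03 FPKM) and the separate 3′ piece (0.605 FPKM) of Gde2KO replicate 1 were the lowest of their kind, against 1.58 to 2.37 and 0.846 to 1.94 in the other libraries that held them.

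Wnt11, which moves cells during gastrulation, stood at 0.785, 0.639 and 0.424 FPKM in the WT libraries and at 0.280, 0.590 and 0.672 in Gde2KO. Gde2KO replicate 1 was again lowest and WT replicate 3 next. The log2 difference was -0.25 (fold 0.841, 0.448 to 1.58, limma adjusted p = 0.894) and turned to 0.063 without Gde2KO replicate 1. Wnt11 lies on chromosome 7 (98835112 to 98855195, plus strand), 526 kilobases from the targeted gene Gdpd5, and is the one ligand of the 10 on that chromosome.

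The assemblies of Wnt11 were incomplete and split between 2 forms. Their 3′ ends lay at -1542 to -1428 bases from the annotated gene end, short of it in every library, and they covered 43.8% to 84.6% of the coding bases. An exon whose following intron begins at 98847452 in the coding transcript Wnt11-201 had that end in WT replicates 1 and 3. In WT replicate 2 and Gde2KO replicates 2 and 3 it ended 164 bases earlier, with the intron from 98847288, as in an annotated transcript marked for nonsense-mediated decay. Gde2KO replicate 1 held the last 2 exons only. Each library with the junction thus had 1 form, at 0.516 to 0.855 FPKM for the long and 0.586 to 0.669 for the short. In the reading frame of Wnt11-201 the short exon closes the frame after 154 codons rather than 354. The next exon is in capitals in both junctions, and in the third line capitals mark the 2 bases that follow the short exon within the long one.
Wnt11 long exon joined to the next: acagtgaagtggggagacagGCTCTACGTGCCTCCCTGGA
Wnt11 short exon joined to the next: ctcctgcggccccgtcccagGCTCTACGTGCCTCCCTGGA
Wnt11 long exon around the end of the short one: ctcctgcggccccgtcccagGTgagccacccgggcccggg

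Over all 10 ligands the libraries held 96 assembled transcripts, 26 of them a single exon, and 2 carried an intron absent from the annotation. A full coding intron chain was found in 38 of the 60 pairs of gene and library. Wnt5a, Wnt5b, Wnt7a and Wnt7b had it in all 6 libraries, Wnt4 and Wnt9a in 5, Wnt3 and Wnt10a in 2, and Wnt2b and Wnt11 in none. These numbers did not follow the level throughout. Wnt3, next to Wnt7b in level, lacked its first exon in 4 libraries, and Wnt9a, below Wnt2b in level, had a full chain where Wnt2b had none.

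**Figure D5:**
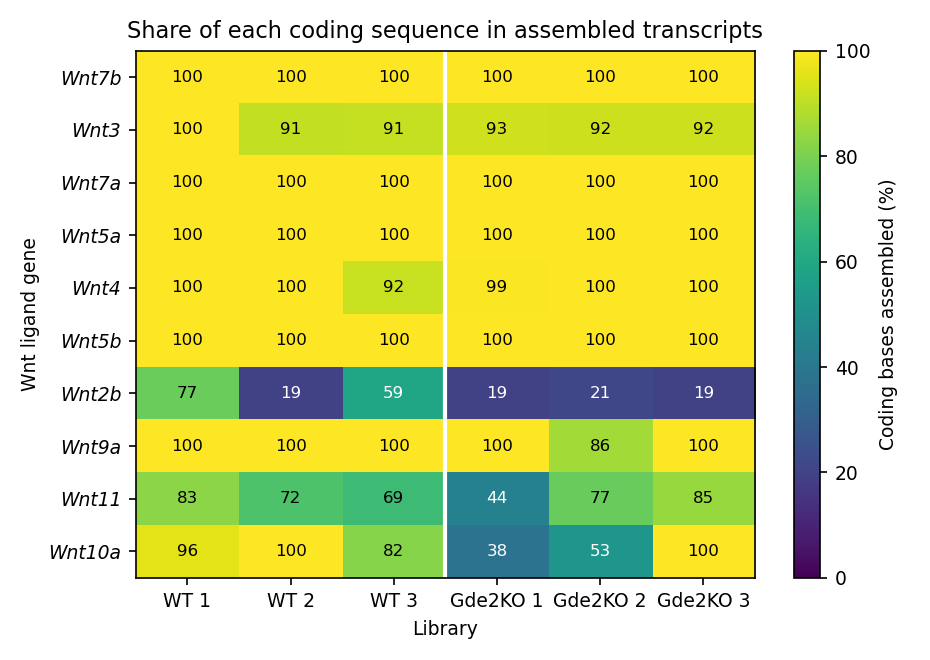
Percent of the coding bases of each Wnt ligand gene found in assembled transcripts of each library, rounded to whole percent, with genes in order of mean level and a white line between WT and Gde2KO. Wnt7b, Wnt7a, Wnt5a and Wnt5b are complete in all 6 libraries, and Wnt2b falls from 77.3% in WT replicate 1 to 19.5% in 3 libraries.

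The other 9 mouse Wnt genes were low or not assembled. Wnt6 was assembled in 5 libraries, with values of 0.386, 0.413 and 0.228 FPKM in WT and 0.370 in both Gde2KO replicates 2 and 3, and it was listed at 0 in Gde2KO replicate 1. Wnt2 and Wnt8b were assembled in WT replicate 1 alone, each as a single exon, at 0.478 and 0.560 FPKM. Wnt1, Wnt3a, Wnt8a, Wnt9b, Wnt10b and Wnt16 were assembled in none. Several Wnt genes lie in neighbouring pairs in the genome, and pairs differed in what was assembled. Wnt10a and Wnt6, 6.19 kilobases apart on the same strand, were both found, and both were low. Wnt9a was found in 6 libraries and its neighbour Wnt3a, 16.2 kilobases away on the other strand, in none. Wnt3 was likewise found without Wnt9b, 24.3 kilobases away, and of Wnt1 and Wnt10b neither was found.

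Genes needed to release Wnt ligands were assembled in all libraries, and none was called between the genotypes. Porcn, the enzyme that attaches the lipid to Wnt proteins, stood at 16.3, 17.8 and 17.5 FPKM in the WT libraries and at 15.9, 17.9 and 17.7 in Gde2KO (fold 0.997, 0.880 to 1.13). Wls, the carrier that brings Wnt proteins to the cell surface, stood at 21.0, 20.2 and 20.2 and at 21.4, 20.1 and 18.9 (fold 0.987, 0.880 to 1.11). Of 10 secretion and processing genes tested, 5 were higher, 5 lower and none was called (3 to 5 lower with each library left out). The smallest p values belonged to Vps35 (fold 1.15, 0.971 to 1.37) and Vps26a (0.803, 0.546 to 1.18), subunits of the complex that recycles Wls, and to Notum (0.748, 0.454 to 1.23), an enzyme that removes the lipid. Their limma adjusted p was 0.882 each.

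Receptors and coreceptors were called in 0 of 20 tested, with 9 higher and 11 lower and 1 with an unadjusted p under 0.05 in limma. With each library left out 11 to 14 were lower. The number at an unadjusted p under 0.05 in limma was then 0 without WT replicate 1 or WT replicate 3, 2 without WT replicate 2 and 1 otherwise, not always the same gene. In the wider fit 13 of 23 were lower, none called. With all libraries the 1 gene under 0.05 was Fzd10, a Frizzled receptor. It had 1.59, 1.32 and 1.64 FPKM in WT and 1.18, 1.22 and 0.808 in Gde2KO (fold 0.717, 0.515 to 0.998, unadjusted p = 0.0489, limma adjusted p = 0.882). Its unadjusted p in limma ran from 0.0455 to 0.131 with each library left out, and was under 0.05 only without Gde2KO replicate 2. Fzd6 (fold 0.860, 0.717 to 1.03) and the coreceptor Ptk7 (0.832, 0.658 to 1.05) came next. Reck, the cofactor of Wnt7a and Wnt7b, stood at 2.78, 2.15 and 2.30 FPKM in the WT libraries and at 2.03, 2.09 and 2.09 in Gde2KO. The groups did not overlap, and the fold of 0.870 (0.719 to 1.05) had a limma adjusted p of 0.882. Adgra2, the receptor it works with, was at a fold of 1.01 (0.628 to 1.63).

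Secreted inhibitors and cofactors were also called in 0 of 9 tested, with 4 higher, 5 lower and none at an unadjusted p under 0.05. The split was 6 higher and 3 lower without WT replicate 1, WT replicate 3 or Gde2KO replicate 1. In the wider fit 13 were tested, 5 higher and 8 lower, none called. Over all genes of that fit 6.27% had groups that did not overlap with Gde2KO lower, and 11.1% in either direction. Of the 13, 4 had such groups, all with Gde2KO lower. Those are Dkk3 and 3 genes below 1 FPKM on average, Sfrp4, Rspo1 and Dkk2, named after their values were seen. Dkk2 was listed at 0 in Gde2KO replicate 1. Sfrp4, a secreted Frizzled-related protein, stood at 1.399, 0.824 and 0.919 FPKM in the WT libraries and at 0.374, 0.734 and 0.761 in Gde2KO, lowest in Gde2KO replicate 1 (unadjusted p = 0.0779, limma adjusted p = 0.884). Dkk3, a secreted protein of the Dickkopf family, was at a fold of 0.911 (0.818 to 1.02), the Wnt-binding protein Frzb at 0.899 (0.724 to 1.12) and the cofactor Cthrc1 at 2.31 (0.565 to 9.46), the last with 0.918 FPKM in WT replicate 1 and 12.3 in Gde2KO replicate 1.

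Canonical Wnt target genes were lower in Gde2KO for 12 of 16 tested and higher for 4, with a median log2 difference of -0.21 against 0.00 over the 12894 genes. None was called (limma adjusted p of 0.882 for each gene named here), and 3 had an unadjusted p under 0.05, where 3.91% of all genes did. With each library left out 11 to 13 were lower, with medians of -0.23 to -0.13. The number at an unadjusted p under 0.05 was then 1 without WT replicate 1, WT replicate 3 or Gde2KO replicate 3, 2 without WT replicate 2, and 5 without Gde2KO replicate 1. In the wider fit 15 of 19 were lower. Several cell type markers were lower too in the fit over 12894 genes, with 6 of 6 meningeal fibroblast markers (median -0.45), 4 of 5 ependymal (-0.25), 4 of 5 Schwann cell (-0.24) and 5 of 6 endothelial markers (-0.11), none of them called. Astrocyte markers were higher for 5 of 6 and oligodendrocyte precursor markers for 5 of 5. The part of these cell types, and of Gde2KO replicate 1 with its low meningeal sum, in the values of the target genes was not tested. Axin2, the feedback inhibitor that most cell types induce on canonical signalling, stood at 2.72, 2.04 and 2.35 FPKM in the WT libraries and at 1.77, 2.23 and 1.74 in Gde2KO. Gde2KO replicate 2 lay within the WT range (fold 0.815, 0.632 to 1.05). Without Gde2KO replicate 1 its fold was 0.843 and without WT replicate 1 it was 0.873. Bambi, a decoy receptor, had a fold of 0.805 (0.691 to 0.938), the receptor gene Tnfrsf19 0.896 (0.807 to 0.994) and the glial factor Sox9 0.724 (0.526 to 0.997). The list was chosen with earlier results of these libraries known and is no independent evidence of its direction.

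The genes most like the 2 most abundant ligands across the libraries were named by Pearson correlation of log2 levels over the 6 libraries, among genes that averaged 5 FPKM or more. For Wnt7b these were Bckdha (r = 0.991), Vps8 (0.978) and Mdh2 (0.976) out of 8217 genes, 42 of which had r above 0.9. For Wnt3 they were Tmem109 (0.990), Sgk1 (0.984) and Scg5 (0.983), with 128 above 0.9. With 6 points that share library depth and scaling, these values describe the libraries only.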

How the data were processed

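The submitters' processing notes name FastQC, TopHat2 2.1.1, Cufflinks 2.2.1, Cuffdiff 2.2.1 and build mm10. The deposited files are one Cufflinks assembly per library, and the authors made their FPKM values, confidence bounds, read depths and score column. They hold no counts.

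Transcripts were matched to GENCODE vM21 (GRCm38, the assembly that mm10 denotes). A level is the FPKM summed at each base over transcripts of at least 200 bases, averaged over exonic bases unshared on the strand and assembled in at least 3 libraries, unassembled bases counting as 0. Genes with at least 200 such bases were tested with limma 3.58.1 in R 4.3.3, two-sided, with intensity trend and robust moderation, after median-of-ratios scaling (0.983 to 1.03). Folds are on the log2(FPKM + 0.1) scale, so changes of low genes are understated. Exact permutation of 3 against 3 cannot go below p = 0.10 and was not used. The script was tested on simulated data. A full coding chain means every intron of an annotated coding transcript.

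The 10 genes and the gene lists were chosen with earlier results of these data known. Named are the ligands, other assembled Wnt genes, Gdpd5, Porcn, Wls, Axin2, Reck, the 3 genes of lowest p in each list among those averaging 1 FPKM or more, the 3 genes most like each of the top 2 ligands, and cell type markers. Adgra2, Ddx3y, Xist, Sfrp4, Rspo1, Dkk2 and St7l were named after their values or positions were seen. The lists with each library left out were added after seeing the data. All libraries carry the same flow cell and lane in their labels, so no batch was tested.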

Additional observations from a re-analysis of the deposited data

How the results depend on the processing

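No ligand passed under any alternative run. Directions of small differences turned as follows, on the log2 scale. With each library left out in turn, Wnt3 ran from -0.15 to 0.24 (negative without WT replicate 1), Wnt5b from -0.17 to 0.10 (positive without WT replicate 1 or Gde2KO replicate 1), and Wnt7b from -0.042 to 0.062 (negative without WT replicates 1 or 3 or Gde2KO replicates 2 or 3). Wnt9a ran from -0.22 to 0.015 (positive without Gde2KO replicate 2) and Wnt11 from -0.46 to 0.063 (positive without Gde2KO replicate 1). Wnt5b was at 0.11 over coding bases only and 0.015 after quantile normalization. Wnt7b was at -0.031 without scaling, -0.0044 after quantile normalization and -0.0074 among genes averaging 5 FPKM or more. With the plain sum Wnt10a was at 0.13, and Wnt9a moved from -0.12 to -0.74. Wnt2b, Wnt4, Wnt5a and Wnt7a kept their direction in every alternative run.

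Among genes averaging 1 FPKM or more, 15 were called, against 7 with a pseudocount of 0.02, 9 by fragments per gene, 4 with unassembled genes as missing, 1 among genes averaging 5 or more, and 10 to 26 with each library left out. Among those averaging 0.1 or more, 19 were called, against 11 by fragments per gene, 12 over coding bases, 4 with unassembled genes as missing, 36 without trend and robust moderation, and 22 to 32 with each library left out. Leaving out WT replicate 2 or Gde2KO replicate 2 moved both counts by over 1.5 times, and leaving out Gde2KO replicate 3 the first. The cause was not tested. Same-numbered libraries shared deviations at correlations of 0.04, -0.02 and 0.04, so the numbers were not taken as pairs. With a replicate block 2 and 5 genes were called, none of them a ligand. Depth of under 5 reads per base limits Wnt2b, Wnt10a, Wnt11 and the spliced transcripts of Wnt9a. It also limits the spliced transcripts of Wnt5b in WT replicates 2 and 3.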
